A study of Homo sapiens with 6 samples.

Results

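The hexokinase genes HK1, HK2, HK3 and HKDC1 and the regulatory protein gene GCKR are described here across the 6 RNA-seq libraries of an OXTR knockdown. They are 5 of the 17153 genes in the deposited files and were found by gene symbol. The set was chosen on the measured contrast itself: an earlier analysis of the same libraries had HKDC1 among the largest increases and HK2 among the genes that were higher. Levels of the members are therefore given as a description, without a test. Of the 5 members, 3 passed a filter on low values (at least 1 FPKM in at least 3 libraries), as did 11655 of all genes. FPKM, a level that divides a gene's fragment count by its length and by the size of the library, was the unit of the deposited values.

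All 6 libraries were of SNU449, an established cell line from a human hepatocellular carcinoma. The siOXTR group (n = 3) had been transfected for 48 h with a small interfering RNA against OXTR, the oxytocin receptor gene, and the siControl group (n = 3) with a control siRNA for the same time. Cells of both groups were grown in RPMI-1640 with fetal bovine serum and antibiotics, both carried a transfected siRNA, and an untransfected group was not analysed here. The siRNA sequences, their number, and whether the libraries of a group came from separate cultures are not stated in the labels. The p-values given for other genes thus rest on the spread between 3 libraries a group, and that spread may be technical.

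Hexokinases add a phosphate to glucose as it enters the cell, and the glucose 6-phosphate they make is held in the cell and feeds glycolysis, the pentose phosphate pathway, glycogen and the hexosamine pathway. HK1, HK2 and HK3 are high-affinity isozymes that are inhibited by their product. GCKR encodes a protein of hepatocytes that regulates sugar phosphorylation from the nucleus. Hepatocellular carcinomas are known for a shift to HK2. HKDC1, hexokinase domain containing 1, is the most recently described member of the family and lies next to HK1 in the genome.

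The coding sequences show how close these relatives are, which matters because the assignment of shared reads is not stated in the labels. In GENCODE release 29 (GRCh38), the coding sequence of HKDC1, of HK1 and of HK2 was 2754 bases in each gene, and that of HK3 was 2772 bases. The first 63 bases of coding sequence are printed because in the HK1 and HK2 proteins they cover the stretch that attaches the enzyme to the outer mitochondrial membrane, and because they show where HK3 departs from the others. Capitals mark bases that differ, position by position, from HK1.
HKDC1: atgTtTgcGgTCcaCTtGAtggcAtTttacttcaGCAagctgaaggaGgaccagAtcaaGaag
HK1: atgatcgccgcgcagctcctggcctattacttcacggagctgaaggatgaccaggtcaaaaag
HK2: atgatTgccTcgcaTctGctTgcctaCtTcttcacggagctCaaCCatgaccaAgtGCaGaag
HK3: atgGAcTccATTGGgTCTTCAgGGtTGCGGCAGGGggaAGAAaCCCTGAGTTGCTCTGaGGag
In this stretch 17 of 63 bases of HKDC1 and 14 of 63 bases of HK2 differed from HK1, against 47 of 63 bases of HK3. Over the aligned coding sequences, HKDC1 was 71.8% identical to HK1 and 72.1% identical to HK2, and HK1 and HK2 were 73.2% identical. HK3 was 63.4% identical to HKDC1. The principal transcripts of HKDC1 and HK1 had no stretch of 50 bases in common, and their longest identical run was 23 bases. The longest identical run between any of these hexokinase transcripts was 30 bases, between HK1 and HK2. The HK2 transcript shared 491 of its 50-base stretches (8.58%) with the pseudogene HK2P1, with an identical run of up to 183 bases. The level of HK2 may thus hold reads of HK2P1, and how much of it they make up was not measured.

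HKDC1 carried most of the hexokinase difference between the groups. It was at 181, 182 and 181 FPKM in the siOXTR libraries, against 15.1, 14.7 and 14.1 FPKM in the siControl libraries. All siOXTR libraries lay far above all siControl libraries, and the libraries of a group lay close together. The mean level was 181 ± 0.842 FPKM in siOXTR and 14.6 ± 0.523 FPKM in siControl (SD, n = 3 each), a 12.4-fold higher level. On the scale of log2(FPKM + 1) the difference, siOXTR minus siControl, was 3.54, the fourth largest increase among the 11655 genes. By mean FPKM, HKDC1 ranked 307 of 17153 genes in siOXTR and 5399 in siControl.

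HK1, the isozyme that most tissues express, differed in the opposite direction and by much less. It was at 48.5, 49.3 and 49.8 FPKM in the siOXTR libraries, against 74.7, 74.2 and 73.4 FPKM in the siControl libraries. The groups did not overlap. The mean level was 49.2 ± 0.659 FPKM in siOXTR and 74.1 ± 0.676 FPKM in siControl (SD, n = 3 each), a 1.51-fold lower level. The difference on the log2(FPKM + 1) scale was -0.58, which ranked 2073 among the decreases.

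HK2, the isozyme most often named in tumour glycolysis, was near the lower limit of the filter in these cells. It was at 1.57, 1.63 and 1.88 FPKM in the siOXTR libraries, against 0.39, 0.30 and 0.37 FPKM in the siControl libraries. The groups did not overlap, but HK2 reached 1 FPKM in 3 of 3 siOXTR libraries and in 0 of 3 siControl libraries, so it passed the filter only through the group in which it was higher. The mean level was 1.69 ± 0.164 FPKM in siOXTR and 0.353 ± 0.0473 FPKM in siControl (SD, n = 3 each), a 4.79-fold higher level. The size of the difference on a log scale depends on the pseudocount at such levels: it was 0.99 on log2(FPKM + 1) and 1.99 on log2(FPKM + 0.1).

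HK3, the isozyme of blood cells, was listed at 0 in 5 of the 6 libraries and at 0.02 FPKM in siOXTR library 3. GCKR was listed at 0.03 FPKM in siOXTR library 3, at 0.05 FPKM in siControl library 2 and at 0 in the other 4 libraries. Both genes were below the filter and are given without a test, and the libraries of the groups overlapped in each. Depth is unknown for these files, so a value of 0 says only how the gene is listed.

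**Figure D1:**
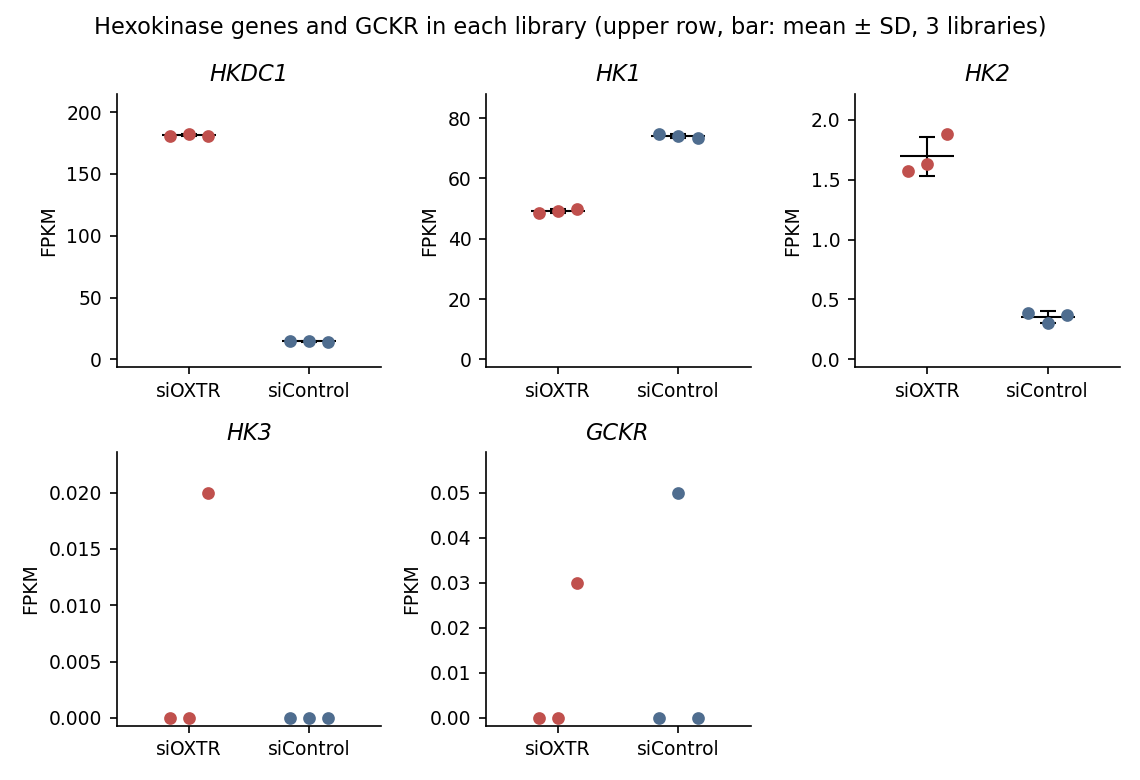
FPKM of HKDC1, HK1, HK2, HK3 and GCKR in the 3 siOXTR libraries (red) and the 3 siControl libraries (blue), each panel on its own linear axis, with mean and SD as bars for the genes of the upper row. HKDC1 (181 against 14.6 FPKM on average) and HK2 (1.69 against 0.353 FPKM) were higher in every siOXTR library, HK1 (49.2 against 74.1 FPKM) was lower in every siOXTR library, and the genes of the lower row were at or near 0.

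FPKM is a level per length, so the levels of these genes can be ordered. In the siOXTR libraries the order was HKDC1, HK1, HK2, and then HK3 and GCKR together, whose values overlapped. In the siControl libraries the order was HK1, HKDC1, HK2, and then HK3 and GCKR, whose values again overlapped. The first 3 places were separated in every library of both groups. HKDC1 and HK1 thus stood in the opposite order in the siOXTR and the siControl libraries. The ratio of HKDC1 to HK1 FPKM was 3.73, 3.70 and 3.64 in the siOXTR libraries, against 0.202, 0.199 and 0.192 in the siControl libraries, and its mean was 18.7 times higher in siOXTR. HK2 stood at 3.44 ± 0.293% of the HK1 level in siOXTR and at 0.477 ± 0.0634% in siControl (SD, n = 3 each).

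The same levels were expressed as shares of the summed hexokinase FPKM, the sum over HK1, HK2, HK3 and HKDC1. HKDC1 made up 78.1 ± 0.271% of the sum in siOXTR and 16.4 ± 0.367% in siControl (SD, n = 3 each), a difference of 61.7 percentage points. Its share ranged from 77.8% to 78.3% in the siOXTR libraries, against 16.0% to 16.7% in the siControl libraries. HK1 made up 21.2 ± 0.198% in siOXTR and 83.2 ± 0.365% in siControl (SD, n = 3 each), a difference of -62.0 percentage points. The range of the HK1 share was 21.0% to 21.4% in the siOXTR libraries, against 82.8% to 83.6% in the siControl libraries. HK2 held less than 1% of the sum in every library, at 0.729 ± 0.0691% in siOXTR and 0.397 ± 0.0526% in siControl (SD, n = 3 each). The highest share of HK3 in any library was 0.00860%. Since shares add up to the whole, the lower share of HK1 holds both its own lower level and the higher level of HKDC1.

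The summed hexokinase FPKM was 231, 233 and 233 in the siOXTR libraries, against 90.2, 89.2 and 87.8 in the siControl libraries. The mean sum was 232 ± 1.28 FPKM in siOXTR and 89.1 ± 1.20 FPKM in siControl (SD, n = 3 each), a ratio of 2.61. The difference of 143 FPKM was made of differences of 167 FPKM for HKDC1, -24.9 FPKM for HK1 and 1.34 FPKM for HK2. Without HKDC1, the sum was lower in siOXTR, at 50.9 ± 0.816 FPKM, than in siControl, at 74.4 ± 0.681 FPKM (SD, n = 3 each). The direction of the total therefore rested on HKDC1 alone. These sums are of RNA levels and hold no information on the amount or activity of the enzymes. In bulk RNA, a lower level could mean fewer cells that express a gene or less of its RNA per cell, and these cannot be told apart.

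**Figure D2:**
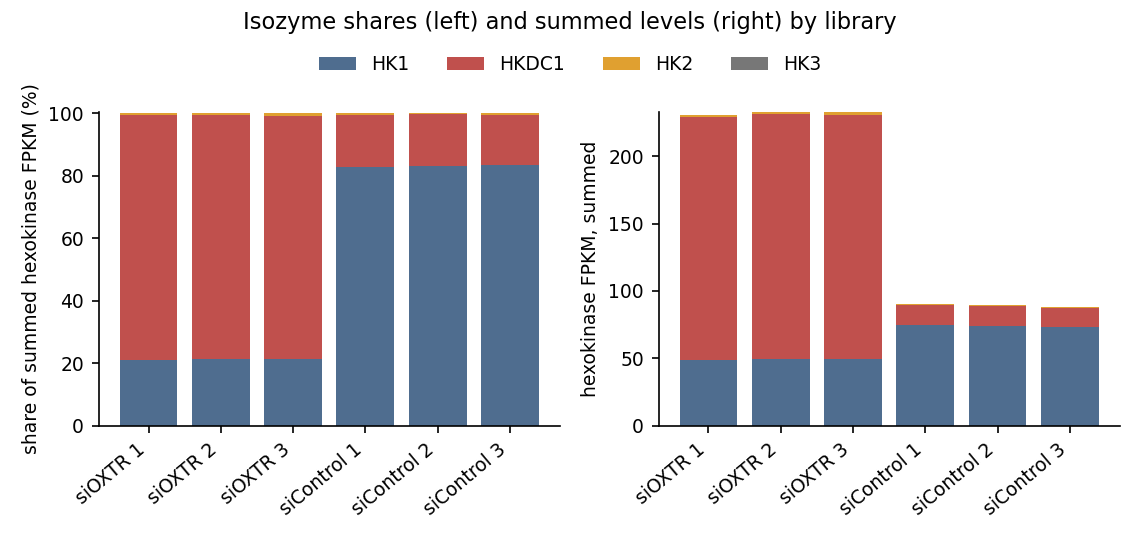
Shares of the summed hexokinase FPKM in percent (left) and the summed FPKM itself (right) for each of the 6 libraries, stacked by gene. HKDC1 held 78.1% of the sum in the siOXTR libraries and 16.4% in the siControl libraries on average, while the sum averaged 232 FPKM in siOXTR and 89.1 FPKM in siControl; HK2 and HK3 are thin or not visible.

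Changes were found across most of the transcriptome, so the members stand against a broad background. By limma on log2(FPKM + 1), 82.5% of the 11655 genes tested passed an adjusted p of 0.05, with 37.7% higher and 44.8% lower in siOXTR, and the groups did not overlap in 83.0%. Over these genes the median log2 change was -0.06. Among the 3 members past the filter, HKDC1 and HK2 were higher and HK1 was lower, and the groups overlapped in none of them. Nothing is read from these counts, since the contrast chose the members. The knockdown target OXTR was at 6.03, 6.11 and 6.14 FPKM in the siOXTR libraries, against 26.5, 26.6 and 24.6 FPKM in the siControl libraries, a 4.24-fold lower level. FPKM sums over all genes were 424168 to 429456 in the siOXTR libraries and 412464 to 415902 in the siControl libraries.

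The hepatocyte identity of the line was limited at the RNA level, which touches GCKR, a gene of hepatocytes. Of 11 hepatocyte markers 10 were in the files, APOB was listed at 0 in all 6 libraries, and ALB, the albumin gene, did not exceed 0.14 FPKM. HNF4A, a transcription factor of hepatocytes, did not exceed 0.05 FPKM. The summed marker level was 4.23 to 4.87 FPKM in the siOXTR libraries, against 43.5 to 44.4 FPKM in the siControl libraries. Most of it came from FGB, the fibrinogen beta chain gene and the 1 marker past the filter. FGB averaged 3.55 ± 0.293 FPKM in siOXTR and 42.1 ± 0.461 FPKM in siControl (SD, n = 3 each). The epithelial markers summed to 170 to 174 FPKM in siOXTR and 124 to 128 FPKM in siControl, chiefly from the keratin genes KRT8 and KRT18. EPCAM did not exceed 0.47 FPKM and CDH1 did not exceed 0.32 FPKM, and the groups overlapped in both. The mesenchymal markers summed to 3391 to 3447 FPKM in siOXTR and 1843 to 1930 FPKM in siControl, nearly all of it from VIM, and the 4 markers went both ways. VIM and ZEB1 were higher in every siOXTR library, whereas FN1, at 1.52 ± 0.0907 FPKM in siOXTR and 15.2 ± 0.272 FPKM in siControl, and CDH2, at 7.28 ± 0.114 FPKM in siOXTR and 24.1 ± 0.893 FPKM in siControl (SD, n = 3 each), were lower in every siOXTR library. The leukocyte markers summed to 10.95 to 12.98 FPKM in siOXTR and 6.84 to 7.88 FPKM in siControl, mostly from CD68, while PTPRC, which encodes the leukocyte antigen CD45, did not exceed 1.01 FPKM. The part of these marker differences in the hexokinase values was not tested.

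**Figure D3:**
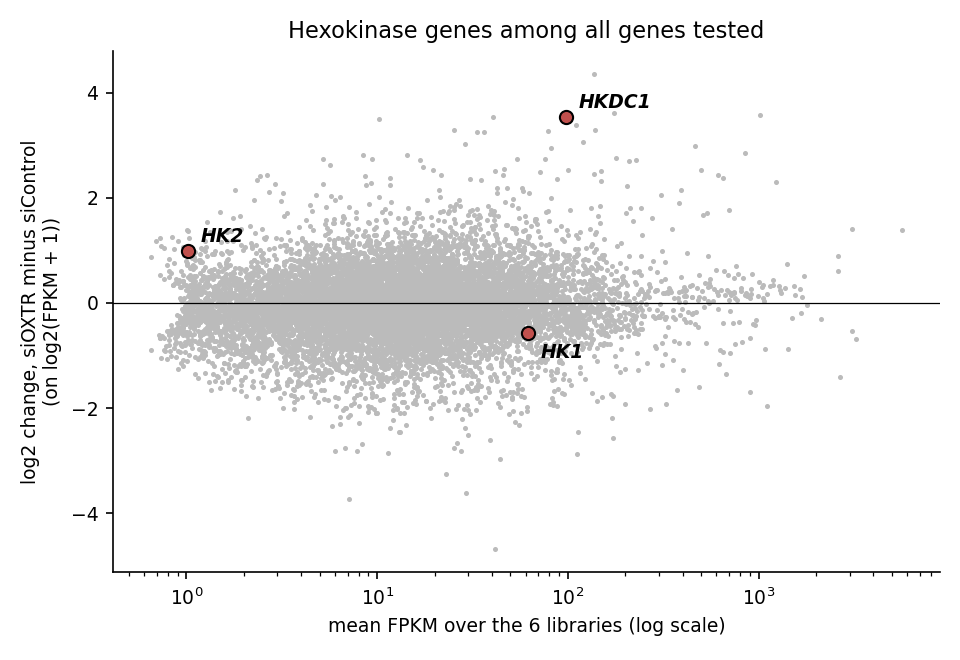
Log2 change (siOXTR minus siControl, on log2(FPKM + 1)) against the mean FPKM over the 6 libraries (log axis) for the 11655 genes tested, each a grey point, with HKDC1, HK1 and HK2 marked. HKDC1, at 3.54, lies at the upper edge of the cloud, HK2, at 0.99, near its left end, and HK1, at -0.58, within it.

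HKDC1 and HK1 are neighbours on the plus strand of chromosome 10, with no annotated protein-coding gene between them. Their RNA levels differed in opposite directions. The genes on either side were compared in chromosome order. On the HKDC1 side, SUPV3L1, which encodes a mitochondrial RNA helicase, rose 3.03-fold to 46.0 ± 0.511 FPKM in siOXTR, against 15.2 ± 0.658 FPKM in siControl (SD, n = 3 each; log2 change 1.54, SE 0.04, limma adjusted p = 5.60e-11). VPS26A, which encodes a retromer subunit, had a log2 change of 0.57 (limma adjusted p = 2.50e-08), and SRGN, the serglycin gene, one of -0.12 (limma adjusted p = 0.00638) that was not past the threshold under median-ratio scaling, at -0.04 (limma adjusted p = 0.322). On the HK1 side, TACR2, a tachykinin receptor gene, was at 0.0633 ± 0.0208 FPKM in siOXTR and 0.0933 ± 0.0115 FPKM in siControl (SD, n = 3 each) and was not tested. TSPAN15, a tetraspanin gene, fell to 9.33 ± 0.367 FPKM in siOXTR, against 17.2 ± 0.702 FPKM in siControl (SD, n = 3 each; log2 change -0.82, limma adjusted p = 3.15e-08). NEUROG3 was not analysed here. On the HKDC1 side, SUPV3L1 and VPS26A were thus higher in siOXTR, and the small decrease of SRGN depended on the scaling. On the HK1 side, TSPAN15 was lower. The difference was larger for HKDC1 than for any of the 4 tested neighbours. Whether the differences of these neighbours are linked was not tested.

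**Figure D4:**
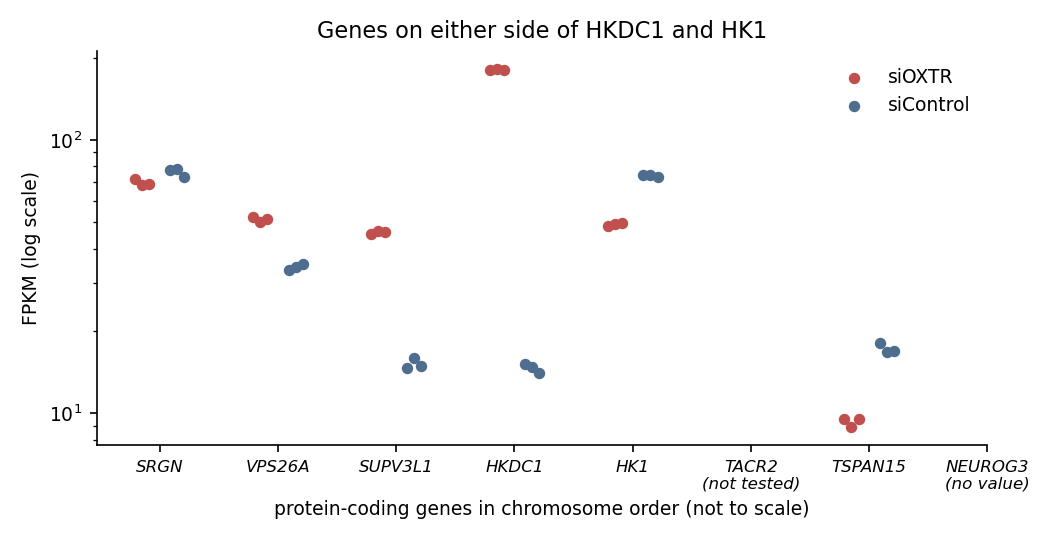
FPKM (log axis) in the 3 siOXTR libraries (red) and the 3 siControl libraries (blue) for the protein-coding genes around HKDC1 and HK1, in chromosome order and not to scale. SUPV3L1 (46.0 against 15.2 FPKM on average) and HKDC1 (181 against 14.6 FPKM) were higher in siOXTR, while HK1 (49.2 against 74.1 FPKM) and TSPAN15 (9.33 against 17.2 FPKM) were lower; no points are drawn for TACR2 and NEUROG3.

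The 250 bases before the RefSeq start (GRCh38.p14) are shown for HKDC1 and HK2, the members with the higher levels in siOXTR, on the plus strand. Capitals mark matches to the motifs named below.
HKDC1, chr10:69220082-69220331: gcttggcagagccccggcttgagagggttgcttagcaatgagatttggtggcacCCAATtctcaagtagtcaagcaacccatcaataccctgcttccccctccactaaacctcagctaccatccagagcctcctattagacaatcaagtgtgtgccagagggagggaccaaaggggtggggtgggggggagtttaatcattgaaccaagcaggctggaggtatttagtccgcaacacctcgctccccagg
HK2, chr2:74833877-74834126: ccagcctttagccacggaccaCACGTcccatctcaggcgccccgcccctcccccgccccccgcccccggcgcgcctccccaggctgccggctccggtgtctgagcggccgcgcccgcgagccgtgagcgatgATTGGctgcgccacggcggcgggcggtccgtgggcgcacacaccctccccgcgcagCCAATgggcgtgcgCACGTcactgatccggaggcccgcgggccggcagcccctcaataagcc
For HK2 this is the window nearest the GENCODE start, out of 2 listed. HK1 has 7 listed windows and gene-level FPKM does not resolve them, so none is shown. Both strands of each window, from 250 bases before the start to 50 after it, were searched for letters chosen with the results known. CCAAT, the CCAAT box, was found once for HKDC1, at -196 from the start, and for HK2 at -118 and -62. CCAAT occurred in 34.6% of the 35116 RefSeq promoter windows. ACGTG, the core of the hypoxia response element, was found for HK2 at -229 and -48, not in the window of HKDC1, and in 21.4% of all windows. TGATGNAA, a core of composite sites of CHOP and ATF factors (3.62% of all windows), CACGTG, the E-box that also contains ACGTG (7.26%), and TATAAA, the TATA box (11.5%), were in neither window. The HK2 window was richer in G and C than that of HKDC1, with a GC content of 74.3% and 38 CpG dinucleotides against 55.3% and 5 CpG dinucleotides, where the median GC content of all windows was 58.7%. A match is a run of letters and not a measured binding site, and a missing match says nothing of the factor.

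Genes with values most like a member over the 6 libraries were ranked by the root mean square difference of centred log2(FPKM + 1) values, among 11492 tested genes with an established symbol. The nearest to HKDC1 was GDF15, a secreted stress cytokine gene, with a root mean square difference of 0.02. It was followed by PPP1R15A (0.05), which encodes the phosphatase subunit GADD34, OLAH (0.06), a thioesterase gene, the transcription factor gene ATF3 (0.07) and the small GTPase gene RND3 (0.11). GDF15 averaged 1877 ± 25.9 FPKM in siOXTR and 156 ± 4.96 FPKM in siControl (SD, n = 3 each), so it shared the fold but not the level of HKDC1. OLAH averaged 19.6 ± 0.235 FPKM in siOXTR and 0.837 ± 0.120 FPKM in siControl (SD, n = 3 each). Its siControl mean lay below the 1 FPKM of the filter, which it passed through siOXTR. The fold of OLAH was larger than the 12.4-fold of HKDC1, so its place depends on the pseudocount. The nearest to HK1 were the cell cycle kinase gene CDK2 (0.01), STAU1 (0.01), which encodes an RNA-binding protein, and KIAA0100 (0.02). The nearest to HK2 were the zinc finger genes ZNF777 (0.04) and ZNF317 (0.04) and RASAL2 (0.04), a Ras GTPase-activating protein gene. These 3 genes did not share the 4.79-fold of HK2: ZNF777, the nearest, averaged 10.4 ± 0.260 FPKM in siOXTR and 4.86 ± 0.121 FPKM in siControl (SD, n = 3 each). The likeness to HK2 thus rests on the pseudocount. With 2 groups of 3 libraries, such likeness is mostly a like size of the difference between groups on the log2(FPKM + 1) scale. It is given as a description.

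The lists of genes around the hexokinase step were described by counts. Of 81 entries 80 were in the files, FBP1 not being analysed here, and 60 passed the filter. Of these, 18 rose and 37 fell in siOXTR, where 37.7% of all genes tested were higher and 44.8% lower. The other 5 did not pass, so 91.7% were called, where 82.5% of all genes were. The median log2 change of the 60 genes was -0.28, where that of all genes tested was -0.06. None was listed at 0 in every library. SLC2A12, GFPT2 and TXNIP did not reach 1 FPKM in every library of both groups. SLC2A12 passed the filter only through siControl and TXNIP only through siOXTR, in each case the group in which it was higher, so the filter favoured their calls. Among the 57 genes at 1 FPKM or more in all 6 libraries, a restriction chosen after seeing the data, 17 rose, 36 fell and 4 did not pass (median log2 change -0.28).

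Glucose transporters, which supply the substrate of the hexokinases, were mostly at low levels, and 6 of 15 were tested. All 6 fell (median log2 change -0.64), as did the 5 that remain without SLC2A12, which passed the filter only through siControl (median log2 change -0.63). Of all genes tested, 44.8% fell. SLC2A1, which encodes the widely expressed transporter GLUT1, fell to 44.5 ± 1.78 FPKM in siOXTR, against 69.4 ± 2.10 FPKM in siControl (SD, n = 3 each; log2 change -0.63, SE 0.04, limma adjusted p = 3.95e-08). Its fold, 1.56-fold lower, was close in size to that of HK1, and the summed hexokinase FPKM lay in the opposite direction. SLC2A13, which encodes a myo-inositol transporter, had a log2 change of -0.93, SLC2A12 of -0.89, SLC2A8 of -0.64 and SLC2A6 of -0.53. SLC2A2, which encodes the hepatocyte transporter GLUT2, did not exceed 0.06 FPKM in any library. The other transporters not tested, SLC2A3 included, stayed below 1 FPKM.

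Of 11 tested other kinases that act on sugars or their phosphates, 2 were higher, 7 lower and 2 not past the threshold (median log2 change -0.26). Of all genes tested, 37.7% were higher and 44.8% lower. ADPGK, which phosphorylates glucose with ADP in place of ATP, fell to 13.8 ± 0.496 FPKM in siOXTR, against 24.6 ± 1.16 FPKM in siControl (SD, n = 3 each; log2 change -0.80, limma adjusted p = 2.90e-08). In siControl it was thus above HKDC1, and in siOXTR far below it. KHK, the fructokinase gene, had a log2 change of -1.16. PFKP, the platelet-type phosphofructokinase gene and the most abundant of its family here, fell to 230 ± 4.77 FPKM in siOXTR, against 391 ± 9.41 FPKM in siControl (SD, n = 3 each; limma adjusted p = 1.18e-09). PFKM had a log2 change of -0.26 and PFKL of -0.14, and PFKL was not past the threshold under median-ratio scaling, at -0.06 (limma adjusted p = 0.13). The members that rose were NAGK (0.56), which phosphorylates N-acetylglucosamine, and GALK2 (0.67), named after its value was seen.

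Genes that act on glucose 6-phosphate, the hexokinase product, were counted by route, and differences between routes were not tested. Toward glycolysis, 1 of 5 tested members rose and 4 fell (median log2 change -0.86), where 37.7% of all genes tested rose and 44.8% fell. GPI, which makes fructose 6-phosphate, fell to 206 ± 9.08 FPKM in siOXTR, against 374 ± 8.21 FPKM in siControl (SD, n = 3 each; log2 change -0.86, limma adjusted p = 2.34e-09). Of the enzymes that set the phosphofructokinase activator fructose 2,6-bisphosphate, PFKFB4 fell to 4.49 ± 0.414 FPKM in siOXTR, against 20.1 ± 0.419 FPKM in siControl (SD, n = 3 each; log2 change -1.95, SE 0.06, limma adjusted p = 2.35e-10). PFKFB3 had a log2 change of -1.11 and PFKFB2 rose by 0.46. Of the genes for hydrolysis and transport back to glucose, G6PC3 (-0.37), the widely expressed glucose 6-phosphatase, and SLC37A4 (-0.96), the glucose 6-phosphate translocase, fell and SLC37A2 (0.24) rose. G6PC1, the glucose 6-phosphatase of liver, did not exceed 0.37 FPKM.

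In the pentose phosphate pathway 4 of 8 members rose, 3 fell and 1 did not pass (median log2 change 0.12). H6PD, which acts at the start of a like pathway in the endoplasmic reticulum, had a log2 change of -0.74. TALDO1 (0.43), PGLS (0.43), PGD (0.30) and TKT (0.12), which act later in the pathway, rose. Not all later members did: RPIA (0.12, limma adjusted p = 0.0625) did not pass. RPE (-0.08, limma adjusted p = 0.0343), named after its value was seen, fell. Of 10 tested glycogen genes 9 fell and 1 rose (median log2 change -0.45), where 44.8% of all genes tested fell and 37.7% rose. GYG2 (-1.19) and GYS1 (-0.88), which start and extend glycogen, had the largest decreases, PGM1 had a log2 change of -0.60, UGP2 of -0.41 and PYGL of -0.37. PYGB (-0.11) was not past the threshold under median-ratio scaling, at -0.03 (limma adjusted p = 0.411). The gene that rose, named after its value was seen, was GYG1 (0.15).

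The hexosamine pathway takes fructose 6-phosphate toward UDP-N-acetylglucosamine. Of its 7 members 5 rose, where 37.7% of all genes tested rose, 1 fell and 1 did not pass. Its median log2 change, 0.57, was the highest of the lists. GFPT1, its rate-limiting enzyme, rose 4.09-fold to 132 ± 1.54 FPKM in siOXTR, against 32.2 ± 0.596 FPKM in siControl (SD, n = 3 each; log2 change 2.0, SE 0.03, limma adjusted p = 1.12e-12). PGM3 rose 2.92-fold to 42.1 ± 0.757 FPKM in siOXTR, against 14.4 ± 0.203 FPKM in siControl (SD, n = 3 each; log2 change 1.48, limma adjusted p = 2.63e-11). UAP1 had a log2 change of 0.51, and OGT (0.93) and OGA (0.57), which add and remove the sugar on proteins, both rose. GFPT2 (0.16, limma adjusted p = 0.108) did not pass, but did so under quantile scaling and without siControl library 2. The member that fell, GNPNAT1 (-0.10, limma adjusted p = 0.0221), was named after its value was seen, and it missed the threshold under median-ratio scaling and without siControl library 3, siOXTR library 1 or siOXTR library 3.

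VDAC1, VDAC2 and VDAC3 encode the channels of the outer mitochondrial membrane at which HK1 and HK2 dock. VDAC1 fell to 253 ± 3.42 FPKM in siOXTR, against 391 ± 1.46 FPKM in siControl (SD, n = 3 each; log2 change -0.63, limma adjusted p = 1.22e-09). VDAC3 had a log2 change of -0.56, and VDAC2 rose by 0.09 (limma adjusted p = 0.0104). Of 7 tested regulators of glucose uptake or of hexokinase genes, 3 rose, 3 fell and 1 did not pass (median log2 change 0.16). Without TXNIP, which passed the filter only through siOXTR, 2 rose and 3 fell, and the median log2 change was -0.06. Among all genes tested, 37.7% rose and 44.8% fell. MYC, which can activate HK2, rose 3.09-fold to 103 ± 1.23 FPKM in siOXTR, against 33.4 ± 0.846 FPKM in siControl (SD, n = 3 each; log2 change 1.6, limma adjusted p = 7.20e-12). HIF1A, whose product activates HK1, HK2 and SLC2A1 in hypoxia, had a log2 change of -0.52 (limma adjusted p = 8.80e-09). TXNIP, which restrains glucose uptake, was at 2.78 ± 0.219 FPKM in siOXTR and 0.490 ± 0.0889 FPKM in siControl (SD, n = 3 each). MLX had a log2 change of 0.35 and SREBF1 of -0.32. The part of these regulators in the hexokinase values was not tested.

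**Figure D5:**
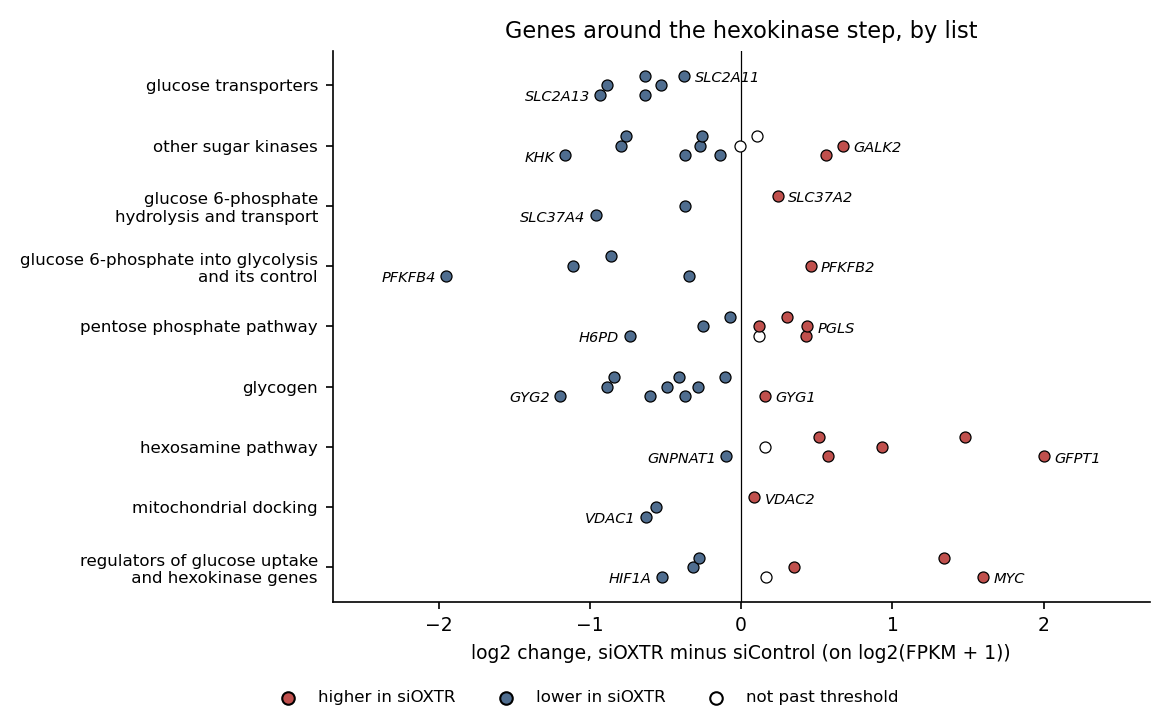
Log2 change (siOXTR minus siControl, on log2(FPKM + 1)) of the 60 tested genes around the hexokinase step, 1 row per list, with the lowest and highest member of each list named. The 6 tested of 15 glucose transporters lie left of 0, among them SLC2A12, which passed the filter only through siControl, 5 of 7 hexosamine genes rose, led by GFPT1 (2.0), and PFKFB4 (-1.95) has the largest decrease.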

How the data were processed

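The authors deposited 1 table per library with FPKM values (2 decimals) for 17153 genes, with NCBI gene ID and symbol, per the file headers. FPKM is already scaled to gene length and library size, so it holds no read counts and the depth of each library is unknown. The aligner, counter, genome build and annotation were not given in the sources used here.

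Genes with at least 1 FPKM in at least 3 libraries entered a limma 3.58.1 fit (R 4.3.3) on log2(FPKM + 1) with the group as its factor, empirical Bayes moderation with a mean-variance trend, two-sided, Benjamini-Hochberg adjusted over all 11655 genes tested, at a threshold of 0.05. Log2 changes understate the change of genes of low level, and folds are ratios of mean FPKM. Shares are FPKM over the summed FPKM of HK1, HK2, HK3 and HKDC1 within a library.

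The members, gene lists and motifs were chosen with earlier results of these data known. Genes named from a list are its 4 tested members of highest mean FPKM and the 2 with the largest change past the threshold. Genes that this rule or the planned hexokinase sum would take, but that are left out, are not reported here. Others are said to be named after their values were seen, or are named because they were not tested or did not pass. Transcripts came from GENCODE release 29, promoters and gene order from RefSeq (GRCh38.p14), and coding sequences were aligned with Biopython 1.88. Alternatives were other pseudocounts, filters and scalings, a block for the replicate number, and each library left out in turn.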

Additional observations from a re-analysis of the deposited data

How the results depend on the processing

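The share of HKDC1 in the summed hexokinase FPKM was 78.0% to 78.2% in siOXTR and 16.3% to 16.6% in siControl with each library left out, and 77.9% in siOXTR and 16.1% in siControl under quantile scaling. With ADPGK added to the sum it was 73.7% in siOXTR and 12.9% in siControl, by construction lower. Weighting by transcript length, chosen after seeing the data, gave 78.1% in siOXTR and 16.7% in siControl. Weighting by protein length was not run. The ratio of the summed FPKM, 2.61, was 2.76 under median-ratio scaling, 2.53 on the TPM scale and 2.59 to 2.62 with a library left out. The log2 difference of HKDC1 was 3.52 to 3.63 and that of HK1 -0.59 to -0.50 under the alternatives. HK2 gave no value at a filter of 5 FPKM or without any 1 siOXTR library, since it then failed the filter.

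Of 703 values of 51 named pathway and neighbour genes under the alternatives, 694 kept their direction and side of the threshold, 7 lost it (PFKL, PYGB, SRGN and GNPNAT1) and 2 passed anew (GFPT2). A gene that failed the filter under an alternative gave no value there and is not counted for it. This holds for SLC2A12 when a siControl library was left out and for TXNIP when a siOXTR library was left out, among others. RPE and RPIA were not among these 51 genes. Calls over all genes were 4395 higher and 5218 lower, 4788 and 4729 under quantile scaling, and 4902 and 4593 under median-ratio scaling. With the replicate number as a block they were 4388 higher and 5205 lower, and pathway calls stayed at 18 higher and 37 lower. No pairing by number was seen: same-numbered libraries had correlations of -0.01, -0.07 and 0.04 of their deviations from the group means. Not every library correlated best with its own number. Whether same-numbered libraries shared a culture or batch is not stated in the labels, and these few correlations cannot decide it. Unknown depth limits HK3 and GCKR most.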
